A study of Mus musculus with 8 samples.

Results

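ATP synthase and the respiratory chain make most of the ATP of an adult heart muscle cell. Complexes I, III and IV pump protons across the inner mitochondrial membrane as electrons pass from NADH and succinate to oxygen, complex II feeds electrons in from the citric acid cycle without pumping, and ATP synthase lets the protons flow back through a ring of c subunits, which turns the catalytic head. Nuclear genes code for most of the subunits and the mitochondrial genome for the rest, so the complexes need transcripts from both. Described here are 9 nuclear genes, taken by symbol from the 33514 rows of the count table. ATP5F1A and ATP5F1B code for the alpha and beta subunits of the catalytic head. ATP5MC1, ATP5MC2 and ATP5MC3 each code for the c subunit. NDUFS1 is the largest iron-sulfur subunit of complex I, SDHA the flavoprotein of complex II and UQCRFS1 the Rieske iron-sulfur protein of complex III. AIFM1 is a flavoprotein of the intermembrane space that is needed to assemble the respiratory complexes and, once released from mitochondria, can take part in cell death.

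The RNA came from adult cardiomyocytes of C57BL/6 mice that were isolated by collagenase perfusion, plated and transfected with siRNA. The siHoxa5 group (4 libraries) received an siRNA against Hoxa5, a homeobox transcription factor, and the siN group (4 libraries) a negative control siRNA. Both groups were given phenylephrine, an alpha1-adrenergic agonist used to bring about hypertrophic growth, at 100 µM for 24 h, starting 24 h after transfection, and no library without phenylephrine was used here. The comparison asks how targeting Hoxa5 alters the transcripts of cells under phenylephrine. Separate animals or cultures are not stated for the repeats, so the p-values describe variation among these libraries, which may be technical.

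The libraries held few assigned counts, with 560190 to 619941.5 in the siHoxa5 libraries and 635824.5 to 658192 in the siN libraries. HOXA5 itself had 1, 3, 4 and 1 counts in siHoxa5 libraries 1 to 4, against 2, 0, 3 and 3 in siN libraries 1 to 4, a ratio of 1.23 with an exact 95% interval of 0.421 to 3.66 for counting error. The counts therefore do not check the knockdown, and each direction given is that of the library labels. On the first principal component, siHoxa5 libraries 2 and 4 lay farther from the siN libraries than siHoxa5 libraries 1 and 3 did, so results are also given without them. Of the 15 cardiomyocyte markers listed, 10 had counts, and TNNI3, MYL2, MYL3, MB and PLN were at 0 in all 8 libraries. The summed cardiomyocyte markers ranged from 93787 to 100418 CPM (counts relative to a fixed library total, after TMM scaling) in siHoxa5 libraries, against 74705 to 79572 CPM in siN libraries. Most of this sum came from MYH6, MYH7 and TPM1, at means of 30432, 29350 and 26441 CPM in siHoxa5 and 21752, 24770 and 21674 CPM in siN. The sum therefore does not describe the marker set as a whole.

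Of the 9 genes, 5 could be measured and 4 could not. ATP5F1B, ATP5MC1, ATP5MC3, NDUFS1 and AIFM1 passed the filter on low counts. ATP5MC2 and UQCRFS1 had 0 counts in all 8 libraries, ATP5F1A had a single count, in siN library 3, and SDHA had 2 counts, 1 each in siN libraries 2 and 4. Summed over a group, a count of 0 allows up to 1.27 CPM in siHoxa5 and 1.16 CPM in siN (3 counts over the unscaled group total, counting error only). All 4 genes are active in heart muscle cells as a matter of textbook knowledge. The cause of the near absence was not tested. The groups were not compared for these 4 genes.

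The rest of the pathway was split in the same way. Of 84 nuclear genes for subunits of complexes I to IV, cytochrome c and ATP synthase, 7 passed the filter, with at least 252 counts each over the 8 libraries. Another 22 had between 1 and 10 counts in all, and 55 had none. No subunit gene of complex II (4 listed) or complex III (9 listed) passed. Complex I had 3 of 37, complex IV with cytochrome c 1 of 16 and ATP synthase 3 of 18. Of the whole list with the 13 mitochondrially encoded genes, 8.25% passed, against 9.01% of all rows of the table. The genes found thus do not cover the enzyme complexes, and no complex could be described as a whole.

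**Figure D1:**
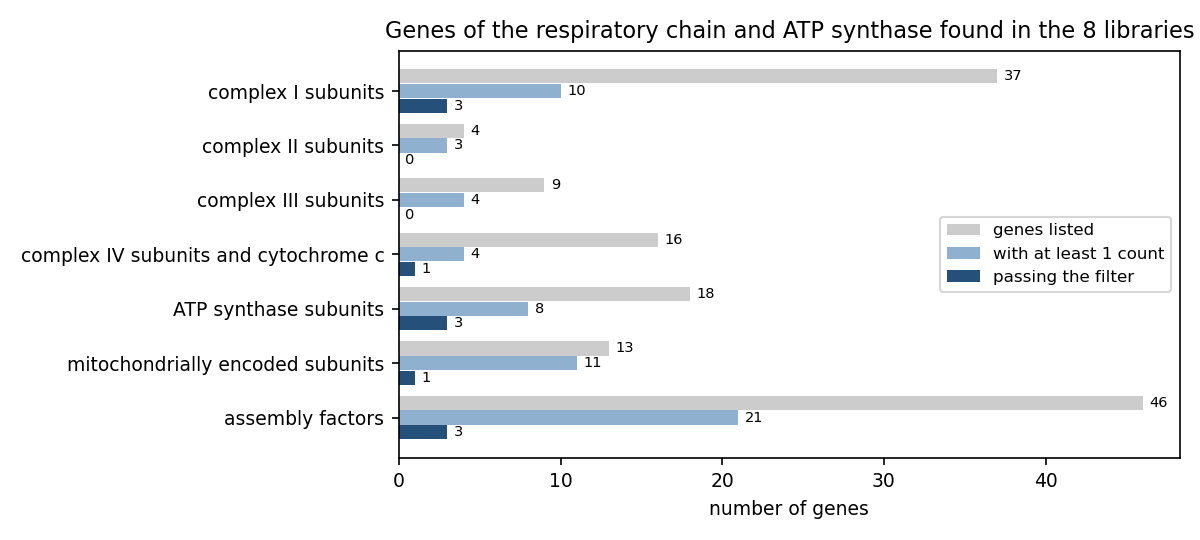
Number of genes (horizontal axis) in each list of respiratory chain and ATP synthase genes: listed, with at least 1 count in any of the 8 libraries, and passing the filter on low counts. For complex I the counts are 37, 10 and 3, and for complexes II and III no gene passed.

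The 3 genes of the c subunit can be set side by side, because they code for the same mature protein from different messages. The stretch below is the first 120 bases of the last 228 coding bases of the mouse transcripts, shown to let a reader see how far their messages differ. Capitals mark the positions at which the 3 genes do not all carry the same base (GENCODE M21, GRCm38, coding strand).
ATP5MC1: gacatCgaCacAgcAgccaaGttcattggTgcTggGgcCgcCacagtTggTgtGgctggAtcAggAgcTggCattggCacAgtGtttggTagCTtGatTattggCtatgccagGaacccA
ATP5MC2: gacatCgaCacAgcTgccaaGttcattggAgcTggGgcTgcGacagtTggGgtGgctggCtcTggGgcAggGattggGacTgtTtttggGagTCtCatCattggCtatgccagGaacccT
ATP5MC3: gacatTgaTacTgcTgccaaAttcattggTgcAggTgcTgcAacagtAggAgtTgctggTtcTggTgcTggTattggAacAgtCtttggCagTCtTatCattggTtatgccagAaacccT
Over the 228 bases the translations of the 3 genes were identical, while their bases were 85.1% identical between ATP5MC1 and ATP5MC2, 79.8% between ATP5MC1 and ATP5MC3 and 78.5% between ATP5MC2 and ATP5MC3. Anywhere in the whole transcripts, the longest run of shared bases was 21 for ATP5MC1 and ATP5MC2. It was 11 for ATP5MC1 and ATP5MC3 and 9 for ATP5MC2 and ATP5MC3. A read of 50 bases within this stretch therefore tells the 3 genes apart. Copies elsewhere in the genome are another matter. Of the 50-base windows of the coding sequence, 99.7% in ATP5MC1 and 100.0% in ATP5MC2 also occur in the transcript of a pseudogene, against 0.0% in ATP5MC3. The coding sequence is 411 of the 4660 bases of the ATP5MC1 transcript and 441 of the 731 bases of the ATP5MC2 transcript. The untranslated rest is not in these windows. For reads from the coding sequence the values of ATP5MC1 and ATP5MC2 are uncertain. The windows are of mouse transcripts, whereas the counted symbols are spelled as in human and the annotation used for counting is not given. The sources used here do not give how the authors counted reads that match several genes. In ATP5F1B the share was 1.04% (the pseudogene Gm4707), and in ATP5F1A, NDUFS1, SDHA, UQCRFS1 and AIFM1 it was 0.0%.

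In the siHoxa5 libraries ATP5F1B, NDUFS1 and AIFM1 rose by 1.24-fold to 1.32-fold, ATP5MC1 and ATP5MC3 did not pass the test, and the other 4 genes were not tested (edgeR quasi-likelihood test over 3020 genes, Benjamini-Hochberg adjusted p under 0.05). Higher in siHoxa5 were thus 3 of the 5 tested genes and lower 0, where of all 3020 genes 3.74% were higher, 3.38% lower and 7.12% either. For these 3 the levels did not overlap between the groups, with siHoxa5 higher, as in 6.19% of all tested genes (siHoxa5 lower in 5.76%, either in 12%). All 5 log2 fold changes were above 0, against 49.4% of all tested genes. With each library left out in turn, 1 or 2 of the 3 calls remained: 1 without siHoxa5 library 3 or siN library 2, and 2 without any other. Without siHoxa5 libraries 2 and 4 together 1 was left, that of AIFM1, and with DESeq2 1, that of ATP5F1B. The median log2 fold change was 0.31 over the 5 genes and -0.00 over all tested genes. The genes were chosen with earlier results of these data known, so the shares describe them and are no test of the set.

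ATP5F1B, the beta subunit that carries the catalytic sites, lies at chr10:128083273-128090391 on the plus strand (mm10, as are all gene positions here). Positions are those of the mouse genes matched by symbol, since the annotation used for counting is not given. Its level was 667.8, 776.0, 624.5 and 672.9 CPM in siHoxa5 libraries 1 to 4, against 506.0, 565.1, 568.2 and 554.5 CPM in siN libraries 1 to 4. Every siHoxa5 library lay above every siN library, and siHoxa5 library 2 was the highest of the 8. The means were 685.3 ± 64.2 CPM in siHoxa5 and 548.5 ± 28.9 CPM in siN (SD, n = 4 each). ATP5F1B rose by 0.32 on the log2 scale (SE 0.07, 95% interval 0.17 to 0.46, edgeR adjusted p = 0.00115). The coefficient of variation was 9.38% between siHoxa5 libraries and 5.27% between siN libraries, where counting error alone gives 5.02% in siHoxa5 and 5.33% in siN. Without siHoxa5 libraries 2 and 4 the log2 fold change was 0.24 and the adjusted p 0.0535, and under each of the other 15 alternatives the gene passed.

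NDUFS1 carries iron-sulfur clusters in the arm of complex I that oxidises NADH, and lies at chr1:63143596-63176833 on the minus strand. It had 191.0, 209.5, 192.4 and 187.3 CPM in siHoxa5 libraries 1 to 4, against 175.3, 131.8, 154.3 and 127.1 CPM in siN libraries 1 to 4. The siHoxa5 libraries were close together, the siN libraries were spread out, and siN library 1 came nearest to the siHoxa5 values without reaching them. The means were 195.1 ± 9.85 CPM in siHoxa5 and 147.1 ± 22.2 CPM in siN (SD, n = 4 each), and NDUFS1 rose by 0.41 on the log2 scale (SE 0.12, 95% interval 0.16 to 0.65, edgeR adjusted p = 0.0257). Counting error alone gives a coefficient of variation of 9.4% in siHoxa5 and 10.3% in siN, where 5.05% was seen in siHoxa5 and 15.1% in siN. The call rested on single libraries: the edgeR adjusted p was 0.0896 without siHoxa5 library 2, 0.0547 without siHoxa5 library 3, 0.0989 without siN library 2 and 0.129 without siN library 4. It was 0.108 without siHoxa5 libraries 2 and 4 together and 0.0723 with DESeq2, and over the 16 alternatives the log2 fold change stayed between 0.34 and 0.50.

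AIFM1, the assembly factor, lies at chrX:48474944-48513563 on the minus strand. It had 344.5, 284.2, 321.2 and 338.3 CPM in siHoxa5 libraries 1 to 4, against 253.8, 263.5, 248.7 and 271.1 CPM in siN libraries 1 to 4. The groups did not overlap, siHoxa5 library 2 lay nearest to the siN libraries, and the siN libraries were closer together than the siHoxa5 libraries. The means were 322.0 ± 27.1 CPM in siHoxa5 and 259.3 ± 10 CPM in siN (SD, n = 4 each), and AIFM1 rose by 0.31 on the log2 scale (SE 0.10, 95% interval 0.12 to 0.51, edgeR adjusted p = 0.0303). The coefficient of variation was 8.42% in siHoxa5 and 3.86% in siN, where counting error gives 7.3% in siHoxa5 and 7.75% in siN. The adjusted p was 0.078 without siHoxa5 library 1, 0.064 without siHoxa5 library 3, 0.0674 without siHoxa5 library 4, 0.0787 without siN library 1, 0.0585 without siN library 2 and 0.097 without siN library 3. It was 0.0721 with DESeq2, whereas without siHoxa5 libraries 2 and 4 together the gene passed, with a log2 fold change of 0.36 (adjusted p = 0.0228).

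The measured c-subunit genes had smaller log2 fold changes than the called members, and this difference was not tested. ATP5MC1, at chr11:96068852-96075670 on the minus strand, had 305.3, 273.2, 285.3 and 292.8 CPM in siHoxa5 libraries 1 to 4, against 253.8, 203.2, 280.2 and 246.6 CPM in siN libraries 1 to 4. Only siN library 3 reached into the siHoxa5 range, and siN library 2 was the lowest of all. The log2 fold change of ATP5MC1 was 0.23, with a 95% interval of 0.03 to 0.44 (SE 0.10, edgeR adjusted p = 0.167), and ATP5MC1 passed under none of the 16 alternatives. ATP5MC3, at chr2:73908447-73911326 on the minus strand, had 1226, 1109, 1171 and 1213 CPM in siHoxa5 libraries 1 to 4, against 985.9, 989.0, 1108 and 1187 CPM in siN libraries 1 to 4. The groups overlapped, with siN library 4 above siHoxa5 libraries 2 and 3. For ATP5MC3 it was 0.14, with a 95% interval of 0.02 to 0.26 (SE 0.06, edgeR adjusted p = 0.144). With an offset for GC content and transcript length in each library it was 0.28 (adjusted p = 5.19e-04), and ATP5MC3 passed under none of the other 15 alternatives. Both intervals lie above 0 before adjustment, so a p that misses the threshold does not show that the 2 genes were alike in the groups.

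**Figure D2:**
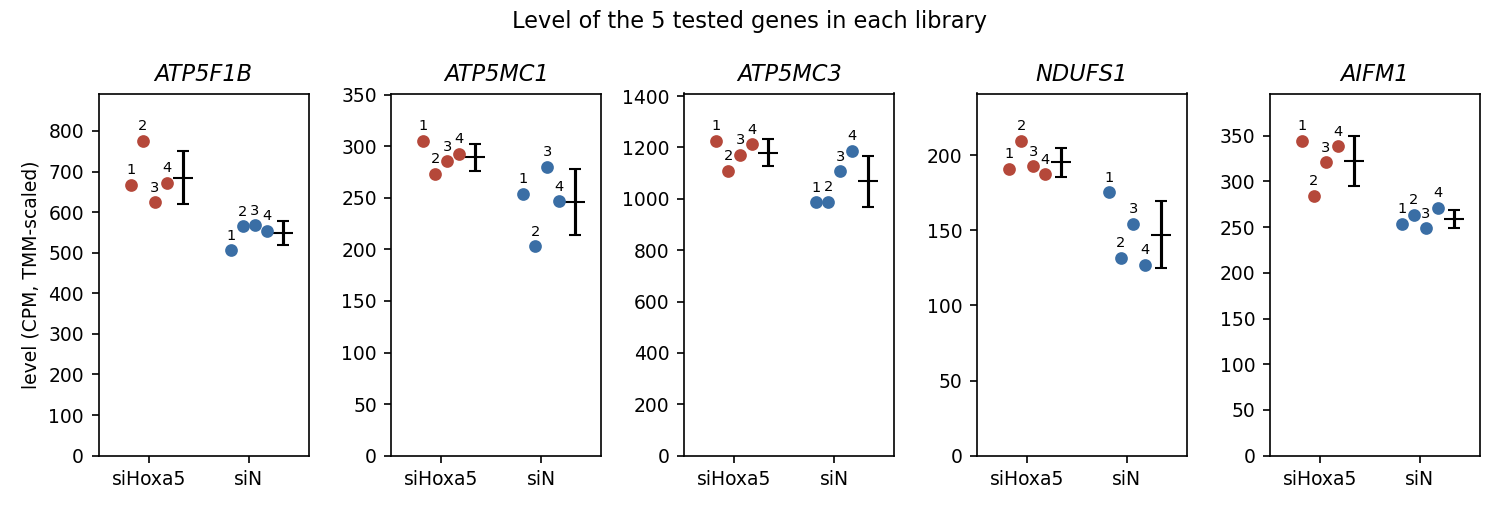
Level of the 5 tested genes (vertical axes, TMM-scaled CPM, each starting at 0) in siHoxa5 and siN libraries, with the library number beside each point and the mean with its SD (n = 4) as a bar. The groups are apart for ATP5F1B, NDUFS1 and AIFM1 and overlap for ATP5MC1 and ATP5MC3.

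The division of the c-subunit counts between its genes does not depend on how libraries are scaled. ATP5MC1 made up 19.9%, 19.8%, 19.6% and 19.4% of the ATP5MC counts in siHoxa5 libraries 1 to 4, against 20.5%, 17.0%, 20.2% and 17.2% in siN libraries 1 to 4, and ATP5MC3 made up the remainder. The siN libraries fell on both sides of the siHoxa5 libraries. The mean share was 19.7 ± 0.212% in siHoxa5 and 18.7 ± 1.85% in siN (SD, n = 4 each), a difference of 0.961 percentage points (two-sided exact permutation test, p = 0.429, where 0.0286 is the smallest p that 70 assignments allow). The difference rested on single siN libraries, being 1.54 points without siN library 1 (exact permutation p = 0.171), 1.45 without siN library 3 (p = 0.286), 0.4 without siN library 2 and 0.453 without siN library 4 (p = 0.886 for each of these 2). The share is one of reads and not of transcripts, since the messages differ in length. ATP5MC2 was at 0, and the ratio of ATP5F1B to ATP5F1A, the partner subunits of the catalytic head, could not be formed.

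Among the other measured subunit genes, none passed the test. In complex I, NDUFAB1, the mitochondrial acyl carrier protein, averaged 180.1 ± 25.8 CPM in siHoxa5 and 175.5 ± 24.5 CPM in siN (log2 fold change 0.04, 95% interval -0.20 to 0.28). NDUFS4, an accessory subunit, had a log2 fold change of -0.06 (-0.48 to 0.36), against 0.41 for NDUFS1 of the same complex, and the difference between these genes was not tested. COX5A was the 1 subunit gene of complex IV that could be tested, with a log2 fold change of -0.02 (-0.28 to 0.24). Of the 7 nuclear subunit genes tested, of 84 listed, 2 rose (ATP5F1B and NDUFS1), 0 fell and 5 did not pass. Both that rose are members already counted above. For this and the lists below, the shares over all 3020 tested genes were 3.74% higher and 3.38% lower. Of 46 assembly factors 3 were tested. AIFM1 rose, while UQCC2, which helps to build complex III, had a log2 fold change of -0.18 (adjusted p = 0.43), and ATPAF2, which helps to build the head of ATP synthase, one of -0.61 (adjusted p = 0.278).

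**Figure D3:**
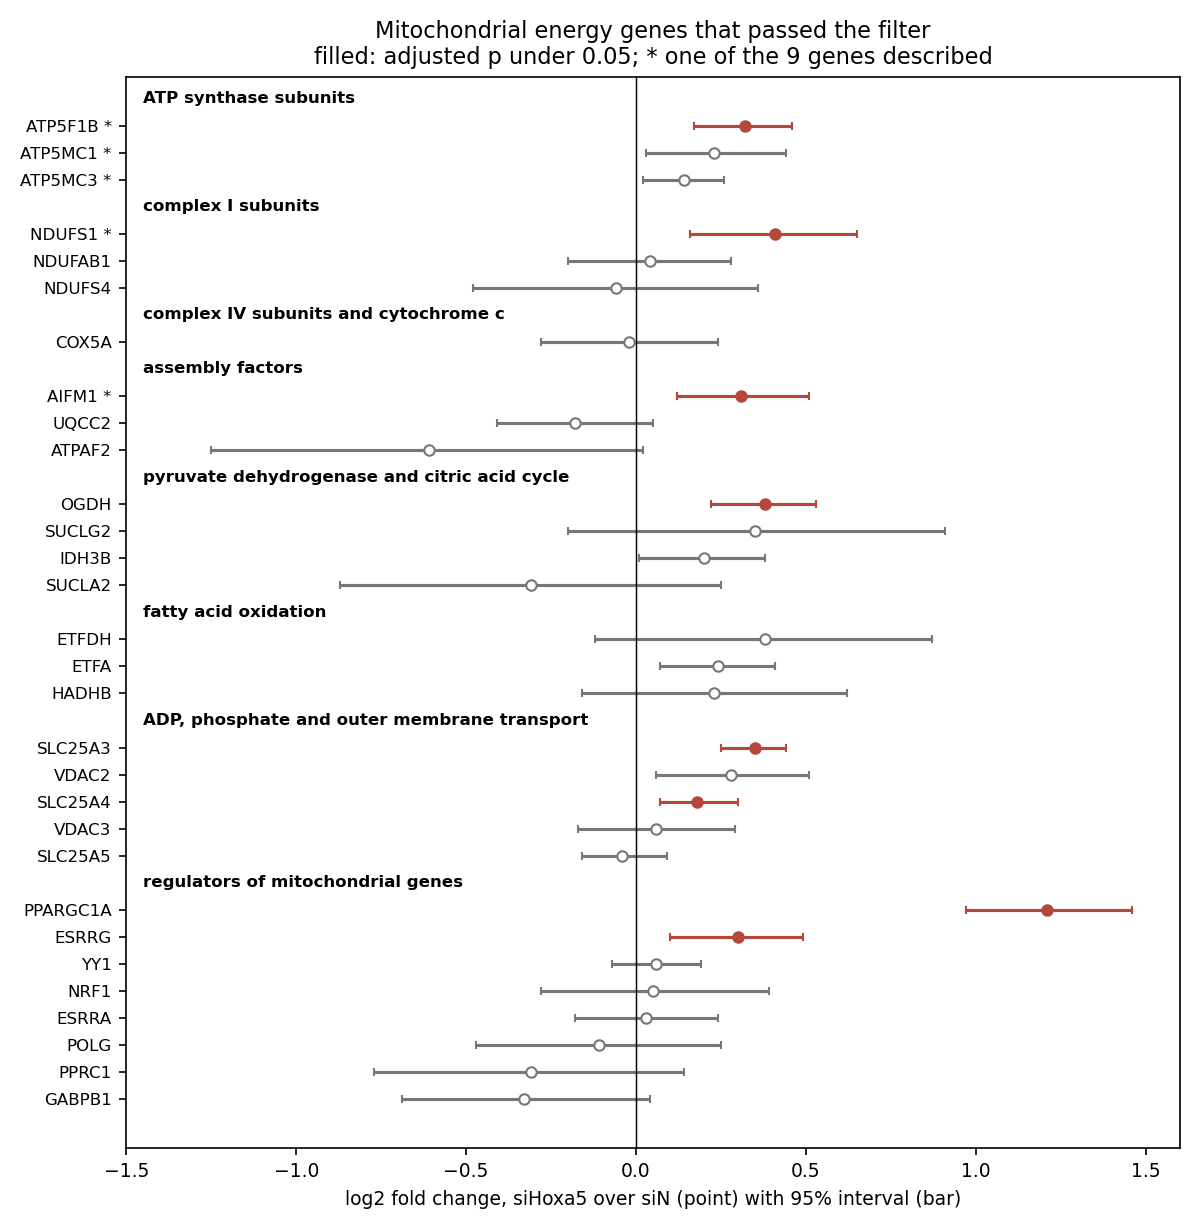
Log2 fold change, siHoxa5 over siN, with its 95% interval (horizontal axis) for nuclear genes that passed the filter in the 8 lists named in the plot (import genes and the mitochondrially encoded MT-CO1, at 1.44, are not drawn), red and filled where the edgeR adjusted p was under 0.05. Among the nuclear subunit genes drawn, ATP5F1B and NDUFS1 are filled, and PPARGC1A stands at 1.21.

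Transcripts of the mitochondrial genome, which code for core subunits of complexes I, III, IV and ATP synthase, are normally abundant in heart muscle. Here their 13 genes together had 45.7, 186, 124 and 276 CPM in siHoxa5 libraries 1 to 4, against 33.8, 30.2, 83.4 and 38.3 CPM in siN libraries 1 to 4. The groups overlapped, since siN library 3 lay above siHoxa5 library 1, and siHoxa5 libraries 2 and 4 were the highest of all. In counts this was 28, 102, 76 and 152 in siHoxa5, against 22, 19, 53 and 25 in siN, or 358 in siHoxa5 and 119 in siN in all. MT-CO1, the catalytic subunit of complex IV, was the 1 gene of the 13 that passed the filter. Its level was 21.2, 67.4, 34.2 and 101.9 CPM in siHoxa5, against 13.8, 11.1, 36.2 and 19.9 CPM in siN, and the log2 fold change of 1.44 (SE 0.57) did not pass (edgeR adjusted p = 0.215). MT-CO1 passed without siHoxa5 library 1 (1.72, adjusted p = 5.56e-08) and without siHoxa5 library 4 (0.99, adjusted p = 0.0271). Fitted without the filter, 5 of 11 genes were higher in siHoxa5: MT-ND4, MT-CO1, MT-CO2, MT-CO3 and MT-ATP6. Of all 7926 genes in that fit, 96 were higher. From the same counts, the SE of MT-CO1 was 0.28 in that fit (edgeR adjusted p = 8.02e-05), against 0.57 with the filter. MT-ND4 had 40 counts over the siHoxa5 libraries, against 8 over the siN libraries (2.42, SE 0.57, adjusted p = 0.00209), so these calls rest on few counts. The highest sums were in siHoxa5 libraries 2 and 4, which lay apart on the first principal component, and without both of them the log2 fold change of MT-CO1 was 0.46 (adjusted p = 0.623).

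**Figure D4:**
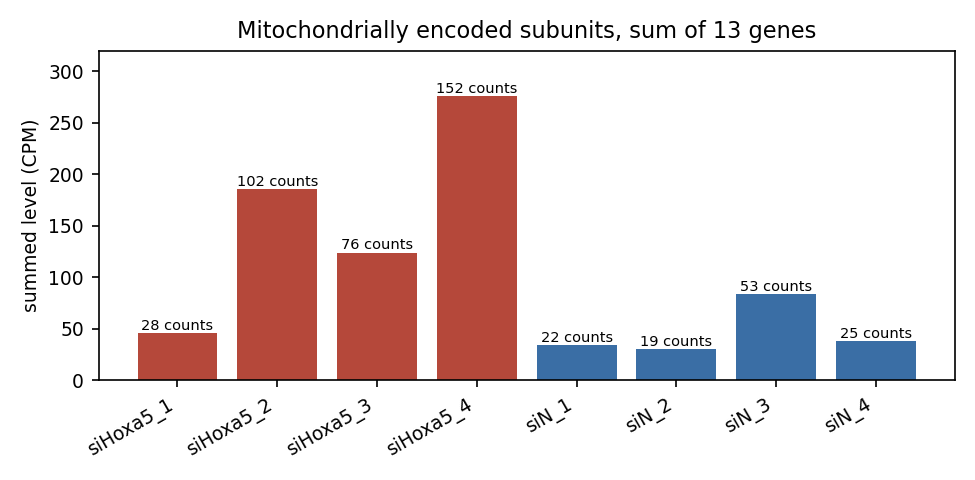
Summed level of the 13 mitochondrially encoded subunit genes (vertical axis, CPM) in each library, siHoxa5 left and siN right, with the summed counts above each bar. The values run from 45.7 to 276 CPM in siHoxa5 and from 30.2 to 83.4 CPM in siN, and the groups overlap.

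ATP synthase needs ADP and phosphate carried into the matrix. SLC25A3, the phosphate carrier, had 3561, 4244, 3600 and 3618 CPM in siHoxa5 libraries 1 to 4, against 2982, 2943, 2972 and 2924 CPM in siN libraries 1 to 4. All siHoxa5 libraries were higher, library 2 by far the most, and SLC25A3 rose by 0.35 on the log2 scale (edgeR adjusted p = 2.34e-08), a call that held under all 16 alternatives. SLC25A4, the ADP/ATP carrier of heart and muscle, averaged 1448 ± 73.4 CPM in siHoxa5 and 1274 ± 66.7 CPM in siN (SD, n = 4 each) and rose by 0.18 (adjusted p = 0.0303). This call was lost without siHoxa5 library 4 (adjusted p = 0.0797), without siN library 1 (0.0589), without siN library 2 (0.0585), without siN library 3 (0.185), with DESeq2 (0.0668) and without the filter (0.0662). SLC25A5, a closely related carrier, had a log2 fold change of -0.04, and how reads shared by such relatives were counted is not given. Of the 9 transport genes 5 were tested, and these 2 were the ones past the threshold.

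Upstream of the respiratory chain, 1 of 4 tested genes of pyruvate dehydrogenase and the citric acid cycle rose. It was OGDH, a subunit of the 2-oxoglutarate dehydrogenase complex that yields NADH, with 601.3 ± 70.1 CPM in siHoxa5 and 462.5 ± 38.6 CPM in siN (SD, n = 4 each; log2 fold change 0.38, edgeR adjusted p = 2.44e-04; 0.25 and adjusted p = 0.0704 without siHoxa5 libraries 2 and 4). None of 3 tested genes of fatty acid oxidation passed, ETFA, which hands electrons on towards ubiquinone, having a log2 fold change of 0.24 (adjusted p = 0.072). Of 9 tested genes of mitochondrial import, chaperones and proteases none rose, and TOMM34 fell by 0.73 on the log2 scale (adjusted p = 0.0496). The TOMM34 call was lost without siHoxa5 library 2 (0.143), 3 (0.138) or 4 (0.0552) and without siN library 1 (0.176), 3 (0.0738) or 4 (0.215), as well as without siHoxa5 libraries 2 and 4, without the filter, with limma-voom and with the length and GC offset. DESeq2 gave TOMM34 no adjusted p, and over the alternatives the log2 fold change was between -0.88 and -0.61.

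Among 8 tested regulators of mitochondrial genes, 2 rose. PPARGC1A, the coactivator PGC-1alpha, had 258.0, 307.9, 242.9 and 209.2 CPM in siHoxa5 libraries 1 to 4, against 104.6, 128.6, 110.2 and 95 CPM in siN libraries 1 to 4. The lowest siHoxa5 library stood well above the highest siN library, and PPARGC1A rose by 1.21 on the log2 scale (SE 0.13, edgeR adjusted p = 9.64e-15), past the threshold under all 16 alternatives. ESRRG, a nuclear receptor that works with PGC-1alpha on genes of oxidative metabolism, averaged 311.3 ± 15.5 CPM in siHoxa5 and 253.5 ± 27 CPM in siN (SD, n = 4 each; 0.30, adjusted p = 0.0496). The ESRRG call was lost without siHoxa5 library 1 (0.069), 2 (0.145) or 3 (0.0666) and without siN library 1 (0.233), 2 (0.0955) or 3 (0.0783), as well as with total counts, without the filter, with DESeq2, limma-voom or the length and GC offset, and without siHoxa5 libraries 2 and 4. The related receptor ESRRA had a log2 fold change of 0.03, and NRF1, a factor that binds promoters of many respiratory genes, one of 0.05.

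RefSeq promoter sequences (GRCm38.p6, 250 bases before to 50 after the start) were at hand for 7 of the 9 genes, all but ATP5F1A and NDUFS1. Printed are those of ATP5F1B and AIFM1, the members past the threshold that have one, and of ATP5MC3, which holds a match to the ESRR motif. Capitals mark matches to the motifs searched.
ATP5F1B, chr10:128083057-128083356, plus strand: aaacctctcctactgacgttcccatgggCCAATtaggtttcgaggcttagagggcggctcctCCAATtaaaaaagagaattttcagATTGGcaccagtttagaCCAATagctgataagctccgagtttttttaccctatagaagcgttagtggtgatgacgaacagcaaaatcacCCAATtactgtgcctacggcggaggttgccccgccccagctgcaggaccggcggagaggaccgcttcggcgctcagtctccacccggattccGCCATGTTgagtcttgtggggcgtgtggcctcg
AIFM1, chrX:48513514-48513813, minus strand: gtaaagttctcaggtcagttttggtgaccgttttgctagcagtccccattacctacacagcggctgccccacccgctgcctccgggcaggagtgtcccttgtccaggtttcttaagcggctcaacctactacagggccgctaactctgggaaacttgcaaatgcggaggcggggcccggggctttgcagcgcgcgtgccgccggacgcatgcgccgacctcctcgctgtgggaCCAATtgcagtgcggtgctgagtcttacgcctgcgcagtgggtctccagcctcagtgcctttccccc
ATP5MC3, chr2:73911277-73911576, minus strand: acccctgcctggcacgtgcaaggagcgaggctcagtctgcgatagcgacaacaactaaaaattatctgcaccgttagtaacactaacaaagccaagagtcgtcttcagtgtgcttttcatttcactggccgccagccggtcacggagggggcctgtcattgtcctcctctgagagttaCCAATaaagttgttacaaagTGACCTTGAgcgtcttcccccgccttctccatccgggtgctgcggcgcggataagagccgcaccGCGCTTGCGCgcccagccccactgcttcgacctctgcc
The motifs were chosen after these promoters had been read, and were searched on both strands. TCAAGGTCA, a site of ESRR receptors, was found in ATP5MC3 only among the 7, and in 0.423% of 32851 promoters of the same length. The palindromic NRF1 consensus was found in ATP5MC2, ATP5MC3 and SDHA, and in 4.6% of all promoters. CCAAT was found in 5 of the 7, with 5 matches each in ATP5F1B and ATP5MC1 (in ATP5MC1 a pair of them overlaps), and in 37.4% of all promoters. AANATGGC, the YY1 type, was found in ATP5F1B and in 6.05% of all promoters. CCGGAAG, the ETS type, and TAATTA, a homeodomain core, were in none of the 7, against 8.86% and 5.29% of all promoters. These are matches of letters, and binding was not measured.

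By the root mean square difference of centred log2 CPM over the 8 libraries, among 1973 tested genes with a mean of at least 50 CPM, the patterns most like ATP5F1B were those of MSL2 (0.043), TJP1 (0.057) and SLC25A3 (0.062). Most like NDUFS1 were ORC5 (0.047), RPRD2 (0.074) and SLC38A2 (0.095), and most like AIFM1 were TPM1 (0.041), ACTN2 (0.063) and COL1A1 (0.066). The distance includes the group difference by which the 3 members were called, and only the nearest of 1973 genes were kept. Counting error alone gives ORC5 a coefficient of variation of 15.2% in siHoxa5 and 16.4% in siN. The matches describe selected genes, and shared control was not tested. SLC25A3 and ATP5F1B were both highest in siHoxa5 library 2, which follows from picking SLC25A3 for its likeness to ATP5F1B. AIFM1 was at its lowest among siHoxa5 libraries in library 2. Its coefficient of variation over siHoxa5 libraries was 8.42%, where counting error alone gives 7.3%.

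The rise of ATP5F1B, NDUFS1 and AIFM1 came beside higher levels of some, not all, genes of the contractile apparatus. Of 10 tested cardiomyocyte markers 5 rose, namely MYH6, MYH7, TPM1, ACTN2 and TTN, and 1, TNNT2, fell (-0.44, adjusted p = 0.0257, with overlapping groups). The other 4 did not pass, with log2 fold changes of 0.47 for RYR2, 0.50 for MYBPC3, -0.03 for ACTC1 and -0.14 for TNNC1. TTN, TNNT2, RYR2, MYBPC3 and TNNC1 are named because they complete these counts, after their values were seen, and the alternatives were not run for them. MYH6, the alpha myosin heavy chain, averaged 30432 ± 1417 CPM in siHoxa5 and 21752 ± 838.8 CPM in siN (SD, n = 4 each; log2 fold change 0.48, edgeR adjusted p = 1.15e-19), and how reads shared by MYH6 and its close relative MYH7 were counted is not given. Fibroblast markers summed to 10961 to 12879 CPM in siHoxa5 libraries, against 10221 to 10909 CPM in siN libraries, with LUM, TCF21 and DPT at 0 and COL1A1 the 1 of 3 tested markers that rose (0.21). Nearly all of this sum came from COL1A1 and COL1A2, at means of 10284 and 1858 CPM in siHoxa5 and 8861 and 1673 CPM in siN. Without siHoxa5 libraries 2 and 4 COL1A2 passed as well (0.33, adjusted p = 6.38e-04), against 0.15 and an adjusted p of 0.621 with all libraries. Endothelial markers summed to 3.64 to 32.7 CPM in siHoxa5 and 14.2 to 31.7 CPM in siN, smooth muscle and pericyte markers to 117.6 to 159.8 CPM in siHoxa5 and 102.3 to 152.3 CPM in siN, and macrophage markers to at most 1.82 CPM in siHoxa5 and 1.57 CPM in siN. Neither of the 2 tested smooth muscle markers passed, and no endothelial or macrophage marker was tested. The part of these markers in the members' change was not tested. In bulk RNA, a different number of cells of a type and a different amount of RNA per cell cannot be told apart.

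**Figure D5:**
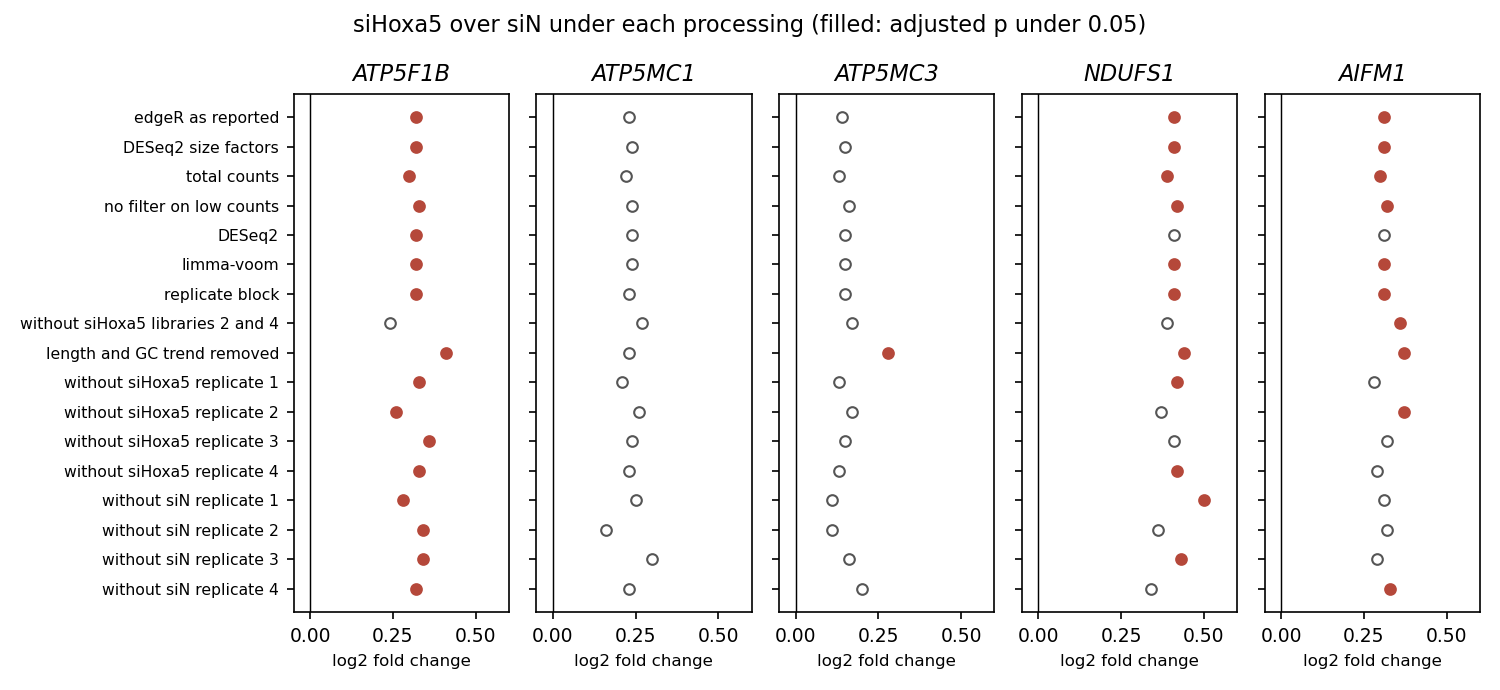
Log2 fold change, siHoxa5 over siN (horizontal axes), of the 5 tested genes as reported and under 16 alternatives (rows), filled where the adjusted p was under 0.05. All values lie above 0; ATP5F1B lost its call in 1 alternative, NDUFS1 in 6 and AIFM1 in 7.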

How the data were processed

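RNA was measured in 4 siHoxa5 and 4 siN libraries, grouped by sample title. The authors deposited estimated counts by symbol, without normalization: whole numbers except in 4 rows. The tools were STAR 2.6.1b, HTSeq, FastQC 0.11.8 and R 3.5.3, on mm10, per the submitters' processing notes, and the labels' protocols name poly-T selection and a TruSeq kit. Annotation, strand setting and treatment of multiply matching reads: not given in the sources used here. Of 33514 symbols, spelled as in human, 16245 matched a mouse symbol once case was ignored. The 8 library files were identical to the series table.

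Values were rounded and all genes tested with edgeR 4.0.16 (quasi-likelihood, robust, TMM, group as the only term, all 8 libraries, R 4.3.3), after filterByExpr (minimum count 10, minimum total 15), which kept 3020 genes with 98.6% of the counts. Adjusted p-values are Benjamini-Hochberg over these genes, with a threshold of 0.05, and are edgeR's unless another tool is named. The common biological coefficient of variation was 6.1%. Limits for counts cover counting error only, since PCR copies are not independent molecules. On counts simulated for this comparison (2971 genes tested), the test recovered 19.3% of 1.25-fold changes, 55.4% of 1.5-fold changes and 87.9% of 2-fold changes, and 9 of 119 calls were false. The simulation gave each gene the same spread in both groups, set by its level. In the data most pairs of siHoxa5 libraries differed more than any pair of siN libraries, so the real shares may be other than these.

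The 9 members and the 17 other gene lists were chosen with earlier results of these data known. Named are all members; in each other list up to 4 genes past the threshold or, with none, the 2 most abundant tested; the 3 genes most like each called member; and the most abundant markers or those at 0. NDUFAB1, NDUFS4, UQCC2, ATPAF2, SLC25A5, ESRRA, NRF1 and single mitochondrially encoded genes besides MT-CO1 fall outside this rule and were named after their values were seen. The 50-base windows were restricted to coding sequence after a first look at whole transcripts. The alternatives were DESeq2 1.42.0 and its size factors, total counts, limma-voom 3.58.1, no filter, a replicate block, each library left out, siHoxa5 libraries 2 and 4 left out, and removal of a loess trend on GC content and transcript length (98.3% of tested genes had both).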

Additional observations from a re-analysis of the deposited data

Results flagged for a closer look

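In 62 groups of 4 libraries (the tested genes among those chosen by the naming rule and the ATP5MC1 share, in siHoxa5 and in siN), a library standing apart from the other 3 was looked for by Dixon's ratio, the gap to the nearest value over the range and its 95% critical value. Chance gives about 1 flag in 20 groups, and 2 were found. SLC25A3 was high in siHoxa5 library 2, at 4244 CPM against 3561 to 3618 CPM in the other siHoxa5 libraries (ratio 0.918). ACTC1 was high in siN library 4, at 5835 CPM against 5413 to 5468 CPM in the other siN libraries (ratio 0.870). No such library was found for ATP5F1B, ATP5MC1, ATP5MC3, NDUFS1 or AIFM1.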

How the results depend on the processing

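The 5 tested members kept a positive log2 fold change under all 16 alternatives. The number called higher was 3, but 1 with DESeq2 and 1 without siHoxa5 libraries 2 and 4, and 1 or 2 with each library left out. Their median of 0.31 was 0.37 with the length and GC trend removed, and 0.26 to 0.32 with a library left out. All calls numbered 215, but 120 with DESeq2 and 143 without siHoxa5 libraries 2 and 4, and 145 to 260 with a library left out. Of the 8 tested among 97 respiratory chain and ATP synthase genes, 2 were higher. Without the filter 7 were, among the 40 with a count, where 96 of all 7926 genes fitted were higher. With DESeq2 1 was higher, without siHoxa5 libraries 2 and 4 0, and 1 to 4 with a library left out. Directions turned for ACTC1 (0.07 without siHoxa5 libraries 2 and 4, 0.08 with the trend removed, -0.07 to 0.04 with a library left out), COX5A (0.11 with the trend removed, -0.18 to 0.08 with a library left out), MYH11 (-0.14 to 0.38 with a library left out), SMTN (-0.08 to 0.13 with a library left out) and HADHB (-0.13 without siHoxa5 libraries 2 and 4). The causes were not tested, except that fewer libraries entered where some were left out. Whether replicate numbers pair the libraries is not stated by the labels. Same-number correlations of deviations were 0.066, -0.007, -0.02 and 0.043, against -0.05 to 0.043 for different numbers. With counting error in every library, such small values cannot exclude a pairing. With the replicate block 250 genes were called and no member's call changed. The respiratory chain list then had 3 higher, since MT-CO1 was added (1.40, adjusted p = 1.03e-05, against 0.215 without the block). The exact permutation p of the ATP5MC1 share was 0.5 with the block, where so few pairs of libraries allow no p under 0.05. The ratio of ATP5F1B to ATP5F1A was not run, since ATP5F1A had a single count. Genes under about 10 counts per library were mostly left out by the filter, and the cause of their low counts was not tested.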
